A study of Mus musculus with 6 samples.

Results

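Bach2 and Bach1 encode the 2 BACH transcriptional repressors, and 72 of the 69171 open chromatin regions of 3 mouse bone marrow cell populations lay nearest to them, 60 at Bach2 and 12 at Bach1. The members were every merged region whose nearest protein-coding gene within 100 kb was Bach2 or Bach1. Regions came from ATAC-seq, in which a transposase cuts accessible DNA, and the peaks of all 6 libraries were merged wherever they shared at least 1 bp. The pc-BMACs, sorted by AireGFP+B220-CD138+TACI+, had 2 libraries, as had the plasma cells (AireGFP-B220-CD138+TACI+) and the B220+ immature B cells (sorted by AireGFP-B220+CD138-TACI-IgM+). All came from unimmunised Adig mice on the Balb/c strain, which carry a transgenic GFP reporter driven by Aire regulatory sequence, and ages are not stated. Each library was made from 2000 to 15000 cells, and the labels leave out whether replicates are from different animals.

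BACH1 and BACH2 combine a BTB domain with a basic leucine zipper, pair with small Maf proteins and bind Maf recognition elements. In B cells BACH2 holds back the plasma cell programme by repressing Prdm1, the gene of the plasma cell regulator BLIMP-1, and it is needed for class switching. BACH1 is found in many cell types, represses Hmox1, which encodes heme oxygenase, and is released from DNA and degraded when heme binds it.

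The RefSeq promoter windows of both genes (250 bases before to 50 after an annotated start, GRCm38.p6, plus strand) are shown because they differ in whether any library had a peak there. The Bach1 window, chr16:87698704-87699003, lay under a peak in all 6 libraries. The Bach2 window, chr4:32417185-32417484, belongs to a start inside the gene interval and lay under a peak in 0 libraries. Capitals mark GGAAG, the core of ETS sites, and CCGCCC, the GC box, on either strand.
Bach1: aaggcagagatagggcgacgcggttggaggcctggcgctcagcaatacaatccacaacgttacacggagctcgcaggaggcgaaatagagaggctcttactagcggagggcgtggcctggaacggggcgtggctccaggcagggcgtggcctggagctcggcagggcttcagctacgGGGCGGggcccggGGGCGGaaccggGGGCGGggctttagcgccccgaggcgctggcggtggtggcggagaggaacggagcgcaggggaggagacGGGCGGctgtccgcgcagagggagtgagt
Bach2: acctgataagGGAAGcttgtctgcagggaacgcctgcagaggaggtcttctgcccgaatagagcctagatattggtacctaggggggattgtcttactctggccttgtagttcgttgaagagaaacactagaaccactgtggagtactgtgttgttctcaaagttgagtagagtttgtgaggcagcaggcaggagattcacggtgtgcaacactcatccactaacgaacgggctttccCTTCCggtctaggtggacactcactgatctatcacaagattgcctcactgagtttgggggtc

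The Bach1 window had 69.7% G and C, 31 CG steps and 4 GC boxes, while the Bach2 window had 50.3% G and C, 7 CG steps and 0 GC boxes. The Bach2 window held 2 ETS cores and the Bach1 window 0. Over all 32851 promoter windows, 35.7% held a GC box and 71.4% an ETS core. Neither window held TGAGTCA, the AP-1 type element (5.20% of all windows), GCTGAGTCA, a 9-letter part of the Maf recognition element that contains it (0.454%), or the E-box CACGTG (7.15%). Windows under a peak in all 6 libraries, 33.3% of the total, had a median of 62.3% G and C, against 48.0% in the 58.0% of windows with no peak. The region nearest to the Bach2 window lay 3.8 kb before it and was called in plasma cells 2 and both immature B cell libraries. At the start of the Bach2 gene interval a region was called in all 6 libraries, but its sequence was not read. The 2 windows thus do not compare the genes at the starts of their intervals.

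Bach2 had the third-highest number of regions among 15084 genes with a region, behind 2 others, and 12.1 regions overlapping the gene per 100 kb of its length. The median of 2018 genes of at least 100 kb was 3.03 per 100 kb, and 122 of them reached the Bach2 value. The gene interval (chr4:32238413-32586109, mm10) held 42 of the 60 regions, 16 lay upstream and 2 downstream. pc-BMACs 1 and 2 called 25 and 13 of the 60 regions, plasma cells 1 and 2 called 27 and 24, and immature B cells 1 and 2 called 44 and 32. As shares of the Bach2 regions, the pc-BMAC libraries had 41.7% and 21.7%, the plasma cell libraries 45.0% and 40.0%, and the immature B cell libraries 73.3% and 53.3%. Over all regions the same libraries called 54.7% and 47.4% in pc-BMACs, 51.8% and 50.5% in plasma cells, compared with 74.1% and 64.8% in immature B cells.

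The 2 immature B cell libraries lay above all others, and pc-BMACs 2 lay lowest, with about as large a gap to pc-BMACs 1 as immature B cells 1 had to immature B cells 2. The mean number of called Bach2 regions was 19.0 ± 8.49 in pc-BMACs and 25.5 ± 2.12 in plasma cells (SD, n = 2 each, exact permutation test, two-sided p = 0.667). Immature B cells averaged 38.0 ± 8.49, above both other populations (exact permutation test, p = 0.333, n = 2 each). With 2 libraries against 2, the smallest two-sided p is 0.333, so no difference between populations could reach significance, and nothing says that the libraries vary as animals do. Peaks at Bach2 covered 18.1 and 11.8 kb in pc-BMACs, 15.4 and 15.4 kb in plasma cells, against 35.1 and 17.6 kb in immature B cells.

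Library size matters for such sums, since the peaks of a whole list covered 28.7 and 23.4 Mb in pc-BMACs, 21.9 and 21.5 Mb in plasma cells, against 36.9 and 26.0 Mb in immature B cells. Per Mb of all peaks, Bach2 had 630 and 504 bp in pc-BMACs, 702 and 714 bp in plasma cells, against 951 and 678 bp in immature B cells. Both pc-BMAC libraries were thus below the other 4 on this scale, and immature B cells 2 lay below plasma cells. Of all 15084 genes, 30.7% had both plasma cell libraries above both pc-BMAC libraries, so that order alone is common. The share of genes with both pc-BMAC libraries below all 4 others is not given.

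**Figure D1:**
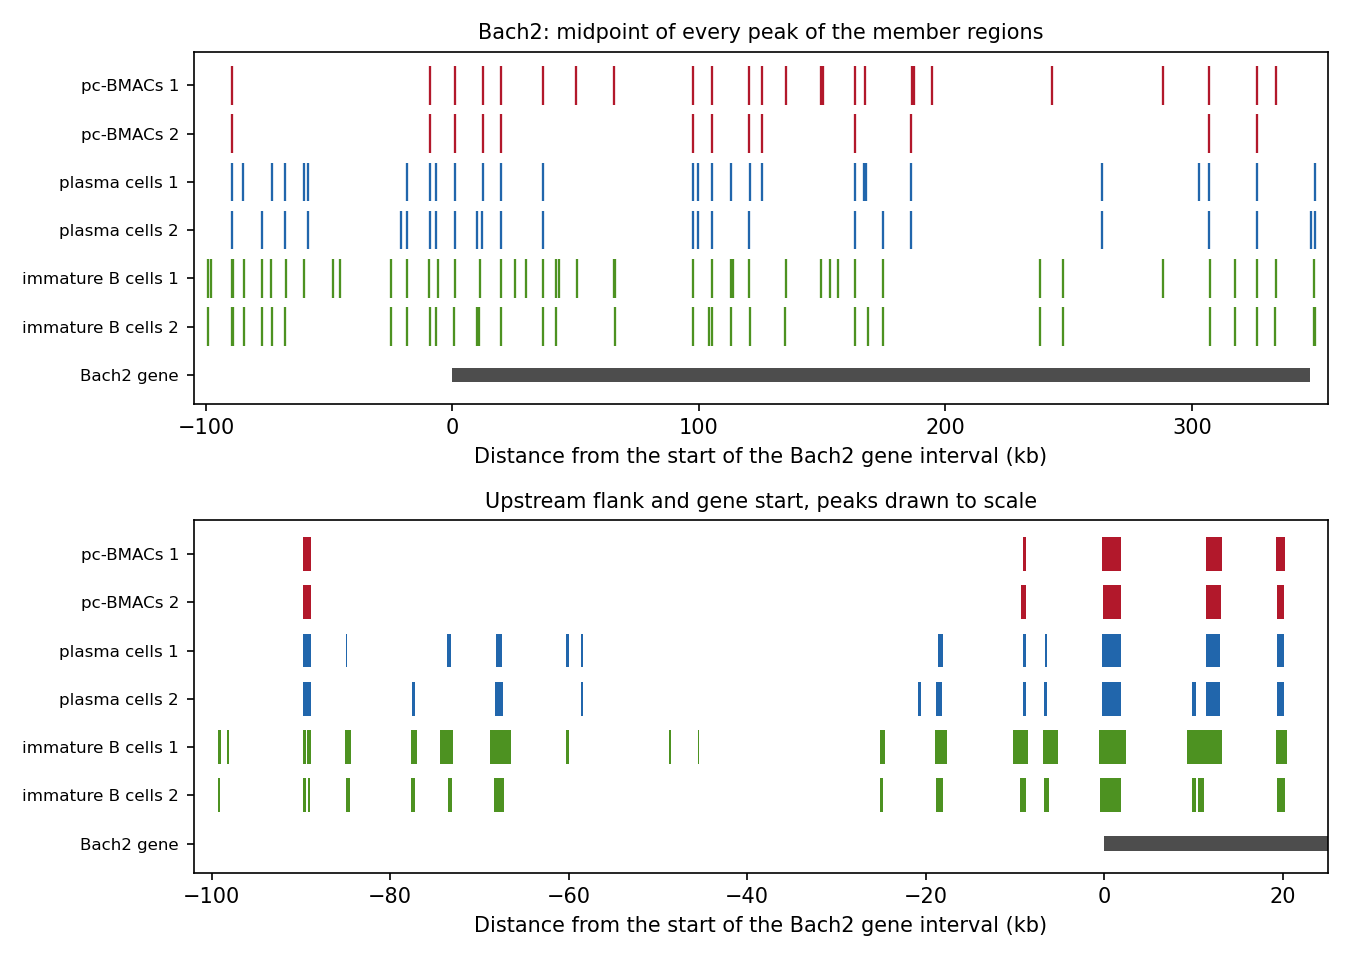
Peaks of the 60 Bach2 regions in each library, by distance in kb from the start of the gene interval (grey bar). The upper panel marks the midpoint of every peak and the lower panel draws the upstream flank to scale, where both pc-BMAC libraries had 2 called regions and the other 4 libraries 8 to 14.

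The pc-BMAC libraries called few regions of the upstream flank. Of its 16 regions, pc-BMACs 1 and 2 called 2 and 2, plasma cells 1 and 2 called 9 and 8, and immature B cells 1 and 2 called 14 and 10. Both pc-BMAC libraries had the same 2 regions, at 88.8 and 8.51 kb before the gene, and these were called in all 6 libraries. The groups did not overlap: 12.5% of the flank regions were called in each pc-BMAC library, 56.2% and 50.0% in plasma cells, compared with 87.5% and 62.5% in immature B cells. Among all 24884 regions outside every gene interval, pc-BMACs called 42.1% and 34.9%, plasma cells 42.9% and 42.7%, and immature B cells 75.9% and 63.7%. The groups did not overlap there either and stood in the same order, so this separation is not particular to the flank. In bases, peaks covered 1.32 and 1.44 kb of the flank in pc-BMACs, 3.74 and 3.87 kb in plasma cells, against 12.5 and 5.55 kb in immature B cells. Per Mb of all peaks these were 46.0 and 61.6 bp in pc-BMACs, 171 and 180 bp in plasma cells, against 340 and 213 bp in immature B cells. The populations did not overlap on this scale, and the share of gene flanks that separate in this way is not given.

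In pc-BMACs the share called in the flank lay below that of regions outside genes, and in the other 4 libraries the shares lay closer. Regions in both plasma cell libraries and neither pc-BMAC library numbered 4 of the 11 flank regions of that comparison (36.4%), against 13.4% of all regions outside genes. Regions that immature B cells had in both libraries and pc-BMACs in neither numbered 8 of 14 (57.1%), against 32.1%. Leaving out either pc-BMAC library kept both counts at 4 and 8. The first count was 7 without plasma cells 2. Under a rule of 50% coverage by peaks, they were 1 and 4. The flank was set apart from the gene after the positions had been seen, so its shares are a description.

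Of the flank regions, 3 were called in the 4 libraries of plasma cells and immature B cells alone. The widest, chr4:32169612-32172000, lay 66.4 kb before the gene. Its peaks covered 0 and 0 bp in pc-BMACs, 646 and 917 bp in plasma cells, against 2389 and 1038 bp in immature B cells. The region chr4:32219432-32220770, at 17.6 kb, had 0 and 0 bp in pc-BMACs, 589 and 750 bp in plasma cells, against 1339 and 815 bp in immature B cells. The region chr4:32231576-32233283, at 5.13 kb, had 0 and 0 bp in pc-BMACs, 313 and 343 bp in plasma cells, against 1708 and 593 bp in immature B cells. In all 3, immature B cells 1 had the widest peaks, and plasma cells 1 the narrowest among the libraries that called the region.

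Another region with this pattern, chr4:32587618-32588656, lay 1.51 kb past the other end of the gene, with 0 and 0 bp in pc-BMACs, 150 and 189 bp in plasma cells, against 1017 and 685 bp in immature B cells. Plasma cell peaks there were at or near the smallest width in the files, 150 bp. Together, 4 of 60 Bach2 regions (6.67%) were in those 4 libraries alone, against 4.88% of all regions. Just outside the 100 kb limit, a region 105 kb before Bach2 was called in these same 4 libraries, and one at 111 kb in both pc-BMAC and both plasma cell libraries. Just inside it, both immature B cell libraries had the region at 98.9 kb, and immature B cells 1 that at 98.1 kb.

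Marker genes of B cells and of T and NK cells also had fewer called regions in both pc-BMAC than in both plasma cell libraries. The 5 B cell marker genes Pax5, Ebf1, Ms4a1, Cd79a and Cd22 had 75 regions, of which pc-BMACs 1 and 2 called 38 and 28, plasma cells 43 and 44, and immature B cells 56 and 53. All 5 genes had a called region in every plasma cell and immature B cell library, and in pc-BMACs 1, while pc-BMACs 2 had none at Cd79a. The 5 T and NK cell markers had 5 and 2 called regions of 15 in pc-BMACs, 9 and 9 in plasma cells, compared with 8 and 5 in immature B cells. The perforin gene Prf1 had 3 regions, all called by each plasma cell library. Each immature B cell library called 1 of them and each pc-BMAC library 0. Tbx21 went the same way, with 3 regions called by each plasma cell library, 1 by pc-BMACs 1 and 0 by pc-BMACs 2. The other markers of this list did not. Cd3d and Cd3g had 1 called region in every pc-BMAC and plasma cell library. At Cd3e, pc-BMACs 1 called 2 regions and pc-BMACs 2 called 0, where each plasma cell library called 1. Between pc-BMACs and plasma cells 1 region of the B cell markers was in both libraries of pc-BMACs and neither of plasma cells, and 10 were the other way round. Of the 10, 6 were at Ebf1, 3 at Pax5 and 1 at Cd22, while Ms4a1 and Cd79a had 0 of either kind. Over all regions called in any of the 4 libraries compared, the shares of these 2 kinds were 8.42% and 9.46%. The number of marker regions called in those libraries is not given, so 1 and 10 have no matching share. Of all regions, pc-BMACs called 54.7% and 47.4%, and plasma cells 51.8% and 50.5%. The part of B cells and of T and NK cells in the Bach2 regions was not tested. The peak lists hold no counts, and a sample with fewer cells that have a site open cannot be told apart from one in which the site is less open per cell.

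Inside the gene, the pc-BMAC libraries were not both low. Of the 42 regions, pc-BMACs 1 and 2 called 23 and 11, plasma cells 17 and 14, and immature B cells 29 and 21. The pc-BMAC libraries lay on either side of the plasma cell libraries. As shares, pc-BMACs had 54.8% and 26.2%, plasma cells 40.5% and 33.3%, and immature B cells 69.0% and 50.0%, and apart from pc-BMACs 1 each library lay below its share of all regions given above. Of 28 gene body regions, 0 were in pc-BMACs 1 and 2 but in neither plasma cell library (against 8.42% of all regions), and 2 were the other way round (7.14%, against 9.46%).

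**Figure D2:**
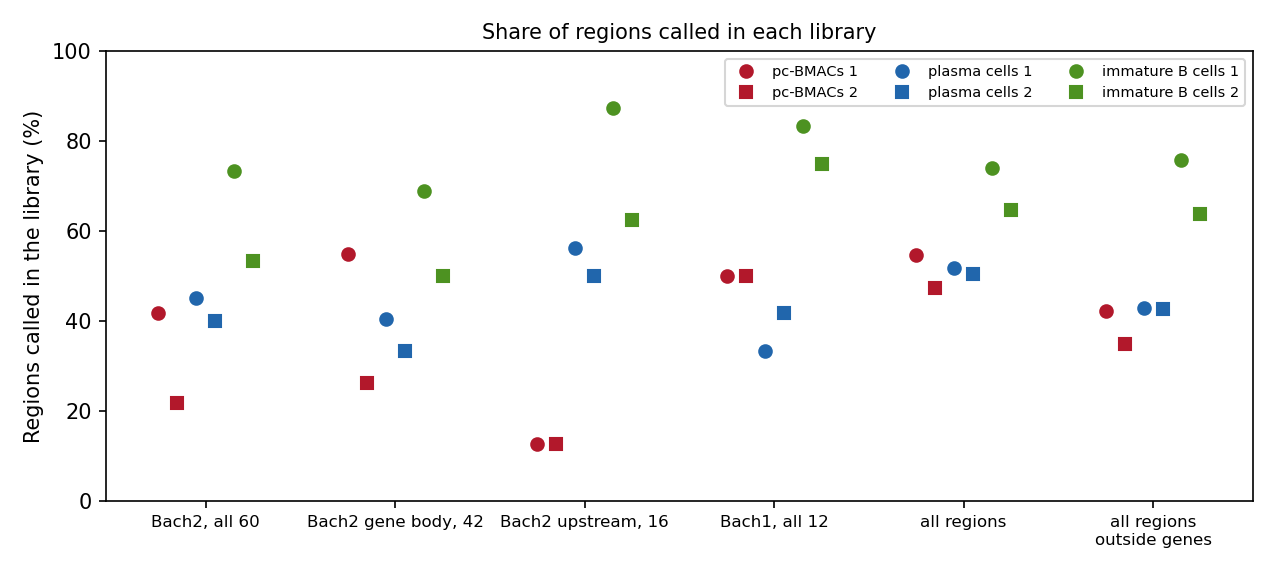
Percent of regions called in each library for the Bach2 and Bach1 regions, the Bach2 gene body and upstream flank, all regions and all regions outside genes. Circles are replicate 1 and squares replicate 2, and both pc-BMAC libraries stood at 12.5% in the Bach2 upstream flank.

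The start of Bach2 was called in every library. The region there, chr4:32237798-32240842, covers the first base of the gene interval, and its peaks spanned 2078 and 2097 bp in pc-BMACs, 2160 and 2145 bp in plasma cells, against 3045 and 2361 bp in immature B cells. The pc-BMAC and plasma cell libraries lay close together, and both immature B cell libraries lay above them. The widest Bach2 region, chr4:32247623-32251597, is centred 11.2 kb into the gene and was also in all libraries, with 1805 and 1722 bp in pc-BMACs, 1597 and 1994 bp in plasma cells, against 3938 and 1093 bp in immature B cells. The immature B cell libraries had both the most and the fewest bases under peaks there. The last peak of immature B cells 2 ended at 11.201 kb. Peaks of pc-BMACs 1 and 2 and plasma cells 1 began at 11.380, 11.378 and 11.397 kb, so they shared no base with it. A peak of immature B cells 1, from 9.210 to 13.147 kb, joined these into 1 region.

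In all, 11 of the 60 Bach2 regions (18.3%) were in all 6 libraries, against 29.6% of all regions, and 20 (33.3%) were in a single library, against 22.3%. Of these 20, 10 were in immature B cells 1 alone (16.7% of the 60, against 10.1% of all regions). Another 5 were in pc-BMACs 1 alone (8.33%, against 4.5%). Both libraries have the longer list of their population, which holds for all regions too. Bach2 regions called in 1 library had a median width of 238 bp, and those called in all 6 had 1352 bp. The same held over all regions, with medians of 197 and 1152 bp.

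Plasma cells alone had 3 Bach2 regions (5.00%, against 1.5% of all regions), 205 to 456 bp wide, where all regions called in 2 libraries had a median of 321 bp. The region chr4:32179845-32180049, 58.4 kb before the gene, had peaks of 150 and 203 bp in plasma cells. The region chr4:32337629-32338084, centred 99.4 kb into the gene, had 321 and 430 bp, and chr4:32501818-32502083, at 264 kb, had 240 and 249 bp. None of these was called in a pc-BMAC or immature B cell library.

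Of the 41 Bach2 regions called in pc-BMACs or plasma cells, 0 were in pc-BMACs 1 and 2 but in neither plasma cell library (against 8.42% of all regions), and 7 were in both plasma cell libraries and neither pc-BMAC library (17.1%, against 9.46%). Without pc-BMACs 2, which called few Bach2 regions, pc-BMACs 1 had 10 regions not called in plasma cells, and plasma cells had 7 not called in pc-BMACs 1. The pc-BMAC count was 1 without plasma cells 1, and the plasma cell count was 11 or 12 without plasma cells 1 or 2. The 50% coverage rule gave 1 and 3.

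pc-BMACs and plasma cells shared a region deep inside Bach2 that the immature B cells did not have. This region, chr4:32424145-32425369, is centred 186 kb into the gene, and its peaks covered 1225 and 665 bp in pc-BMACs, 488 and 415 bp in plasma cells, against 0 and 0 bp in immature B cells. Both pc-BMAC peaks were wider than both plasma cell peaks. It was the 1 Bach2 region of this pattern (1.67%, against 3.66% of all regions). A region 125 kb into the gene, chr4:32363492-32364140, had 649 and 192 bp in pc-BMACs and 210 and 0 bp in plasma cells. Another, chr4:32405173-32406348 at 167 kb, had 1176 and 0 bp in pc-BMACs and 475 and 0 bp in plasma cells, and neither was called in immature B cells. These last 2 were chosen after their values were seen.

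Immature B cells alone had 7 Bach2 regions (11.7%, against 14.3% of all regions). At 98.9 kb before the gene lay chr4:32139183-32139519, and at 24.6 kb chr4:32213242-32213835, whose peaks covered 594 and 429 bp. Inside the gene lay chr4:32280452-32280730, chr4:32304202-32304632, chr4:32476623-32476936, chr4:32485917-32486177 and chr4:32555562-32556176, from 42.2 to 317 kb after its start. The last was the widest of the 7, with 615 and 350 bp. No Bach2 region was in both pc-BMAC libraries alone (against 4.42% of all regions), or in both pc-BMAC and both immature B cell libraries alone (against 1.06%).

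Against immature B cells, pc-BMACs had 2 of 54 Bach2 regions of their own (3.70%, against 10.3%) and immature B cells had 16 (29.6%, against 24.1%). The pc-BMAC count was 8 without pc-BMACs 2, and the immature B cell count was 27 without immature B cells 2. Plasma cells had 4 of 55 regions not called in immature B cells (7.27%, against 6.35%), and immature B cells had 9 not called in plasma cells (16.4%, against 19.0%). These last shares were close to those of all regions. They became 7 without plasma cells 2 and 22 without immature B cells 2, and with lists of equal length immature B cells had 5.

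**Figure D3:**
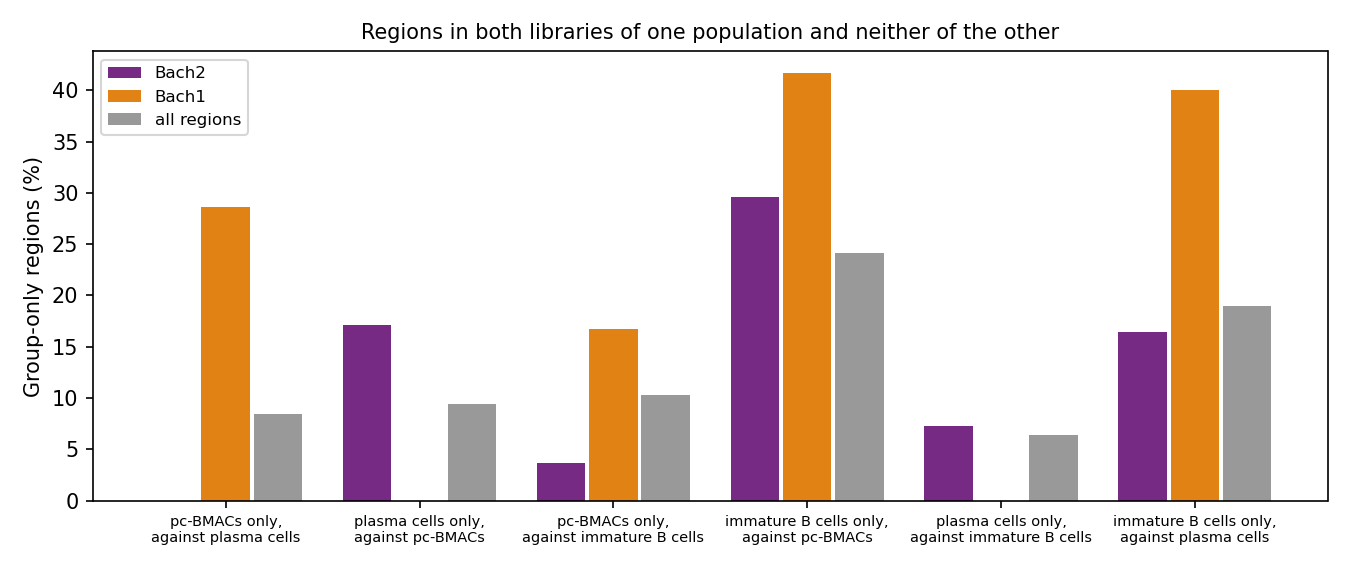
Percent of the regions of each comparison that were called in both libraries of one population and neither of the other, for Bach2 (of 41, 54 and 55 regions), Bach1 (of 7, 12 and 10) and all regions. Absent bars are counts of 0, and Bach2 and Bach1 lay on opposite sides between pc-BMACs and plasma cells, where 0 and 2 regions were pc-BMAC-only, and 7 and 0 were plasma-cell-only.

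Base by base, the mean match between populations was lower at Bach2 than over all peaks. The Jaccard index is the number of shared bases divided by the number under a peak of at least 1 of the lists. Its mean was 0.537 between pc-BMACs and plasma cells at Bach2 (0.465 to 0.599 over 4 pairs of libraries) and 0.593 over all peaks. It was 0.297 between pc-BMACs and immature B cells (0.268 to 0.319), and 0.459 over all peaks. It was 0.390 for the plasma cell and immature B cell pairs (0.335 to 0.464) and 0.515 for these over all peaks. Replicates at Bach2 also matched less, with 0.605 at Bach2 and 0.728 over all peaks in pc-BMACs, 0.702 and 0.748 in plasma cells, compared with 0.482 and 0.652 in immature B cells. All 4 values between pc-BMACs and immature B cells lay below every other pair at Bach2.

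At Bach1 (chr16:87698954-87733346, mm10), both pc-BMAC libraries had more called regions and more bases under peaks than both plasma cell libraries. Its 12 regions comprised 3 that overlap the gene, 6 upstream and 3 downstream. pc-BMACs 1 and 2 called 6 and 6 of the 12, plasma cells 4 and 5, and immature B cells 10 and 9. The 3 populations did not overlap in this count. Each pc-BMAC library called 50.0% of the Bach1 regions, close to its share of all regions (54.7% and 47.4%). The plasma cell libraries, at 33.3% and 41.7%, lay below their general shares of 51.8% and 50.5%. Immature B cells, at 83.3% and 75.0%, were also the highest over all regions (74.1% and 64.8%). The share of genes that separate in this way is not given. pc-BMACs averaged 6 ± 0 regions and plasma cells 4.50 ± 0.707, while immature B cells averaged 9.50 ± 0.707 (SD, n = 2 each, exact permutation p = 0.333 for every pair).

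In bases, Bach1 peaks covered 5.65 and 4.64 kb in pc-BMACs, 2.27 and 2.33 kb in plasma cells, against 5.88 and 3.50 kb in immature B cells. Per Mb of all peaks these were 197 and 198 bp in pc-BMACs, 103 and 108 bp in plasma cells, against 159 and 135 bp in immature B cells. The populations did not overlap on this scale either, with pc-BMACs highest and plasma cells lowest. The ratio of pc-BMACs over plasma cells was 1.87, and 60 of 1512 genes with at least 10 regions reached it, where the median gene had 1.01 and Bach2 had 0.801. Both pc-BMAC libraries were above both plasma cell libraries in 23.3% of all genes. The share of genes in which all 3 populations separate on this scale is not given.

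**Figure D4:**
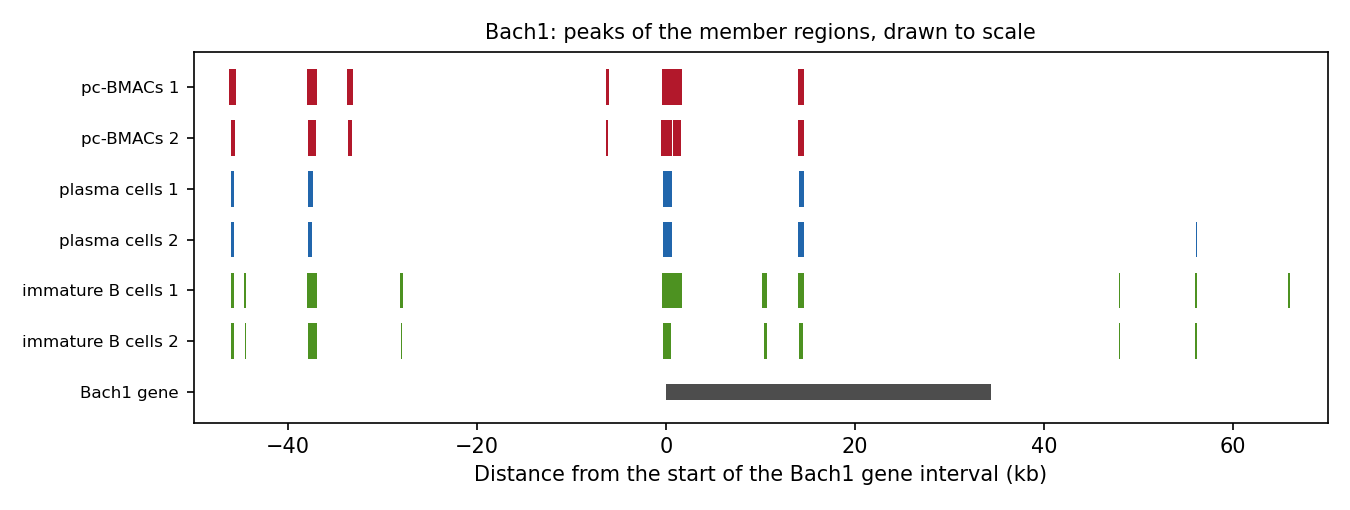
Peaks of the 12 Bach1 regions in each library, drawn to scale by distance in kb from the start of the gene interval (grey bar). The 2 pc-BMAC libraries alone had peaks 33.2 and 5.99 kb before the gene. At the gene start their peaks covered 2162 and 2006 bp, the latter summed over 2 peaks of pc-BMACs 2.

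Called in both pc-BMAC libraries alone were 2 Bach1 regions, 16.7% of its 12, against 4.42% of all regions. The region chr16:87665220-87665791, 33.2 kb before the gene, had peaks of 572 and 441 bp in pc-BMACs and none in plasma cells or immature B cells. The region chr16:87692583-87692960, 5.99 kb before the gene, had 378 and 249 bp in pc-BMACs and none elsewhere. Against plasma cells these were 2 of 7 regions (28.6%, against 8.42%), and against immature B cells 2 of 12 (16.7%, against 10.3%). Plasma cells had 0 of 7 regions not called in pc-BMACs (against 9.46%), or 1 without plasma cells 1. With the widest 17035 peaks of each list, the regions of pc-BMACs against plasma cells became 0 and those against immature B cells 1.

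Immature B cells alone had 4 of the 12 Bach1 regions (33.3%, against 14.3% of all regions), and plasma cells alone had 0 (against 1.5%). The 4 were chr16:87654270-87654513 and chr16:87670803-87671094 before the gene, chr16:87709140-87709650 inside it and chr16:87746837-87747034 after it. The intragenic region had the widest peaks of the 4, with 511 and 230 bp in immature B cells 1 and 2. Immature B cells had 5 of 12 regions not called in pc-BMACs (41.7%, against 24.1%) and 4 of 10 not called in plasma cells (40.0%, against 19.0%). With each list cut to its widest 34070 peaks both counts were 0, and Bach1 then had 7 regions. Plasma cells had 0 of 10 regions not called in immature B cells (against 6.35%). All 3 downstream regions were uncalled in pc-BMACs, and plasma cells 2 called 1 of them.

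The 4 Bach1 regions in all 6 libraries (33.3%, against 29.6%) were wider in pc-BMACs than in plasma cells. The gene start, chr16:87698402-87700676, which holds the printed Bach1 window, was the widest Bach1 region, with 2162 and 2006 bp in pc-BMACs, 961 and 944 bp in plasma cells, against 2095 and 892 bp in immature B cells. The pc-BMAC and plasma cell libraries were far apart, while the immature B cell libraries fell on both sides. The region chr16:87660935-87662038, 36.9 kb before the gene, had 1031 and 855 bp in pc-BMACs, 474 and 412 bp in plasma cells, against 1104 and 904 bp in immature B cells. The region chr16:87652653-87653482, at 45.5 kb, had 830 and 471 bp in pc-BMACs, 266 and 286 bp in plasma cells, against 407 and 350 bp in immature B cells. The smallest gap was at chr16:87712883-87713563, inside the gene, with 681 and 614 bp in pc-BMACs, 567 and 539 bp in plasma cells, against 587 and 437 bp in immature B cells.

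Both pc-BMAC peaks exceeded both plasma cell peaks in 4 of 4 such Bach1 regions and in 7 of 11 at Bach2, against 49.9% of the 20468 regions in all libraries. The opposite held in 0 of 4 and 2 of 11, against 8.96%. Summed over these regions, pc-BMACs had 1.94 times the bases of plasma cells at Bach1, 1.11 times at Bach2 and 1.19 times over all. Wider pc-BMAC peaks were thus general in these lists, and the Bach1 ratio lay above the general one. Between pc-BMACs and plasma cells the Jaccard index at Bach1 averaged 0.430 (0.376 to 0.489), while replicates had 0.784 in pc-BMACs, 0.862 in plasma cells, compared with 0.594 in immature B cells. Without counts a wider peak is not shown to be a more open site.

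**Figure D5:**
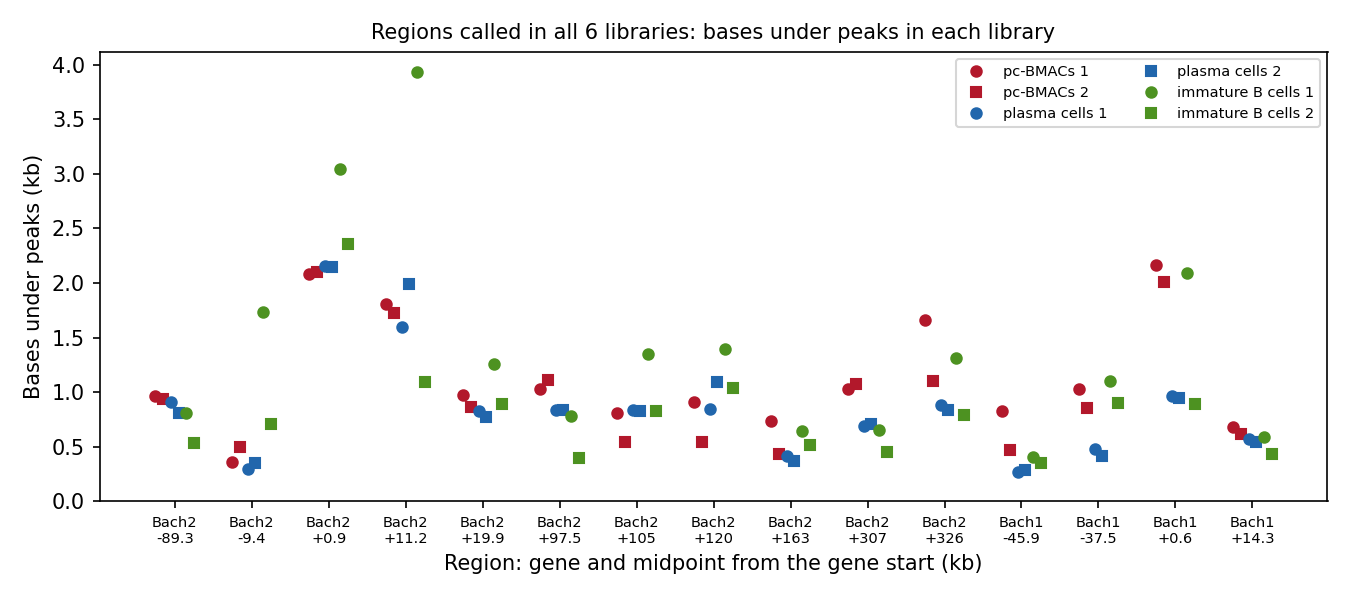
Bases under peaks in kb, in each library, at the 11 Bach2 and 4 Bach1 regions called in all 6 libraries, ordered by gene and by midpoint from the gene start. At the start of Bach1 both pc-BMAC libraries lay near 2 kb and both plasma cell libraries below 1 kb, while at the start of Bach2 these 4 libraries lay between 2078 and 2160 bp.

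The 9 protein-coding genes within 500 kb of Bach2 had 42 regions, of which pc-BMACs called 31 and 24, plasma cells 32 and 24, and immature B cells 25 and 26. Of these, 2 were called in both pc-BMAC and neither plasma cell library (pc-BMAC-only), at Map3k7, and 4 the other way round (plasma-cell-only), at Ankrd6. The 7 genes within 500 kb of Bach1 had 14 regions and 0 of either kind. Of all 15084 genes, 14.4% had more pc-BMAC-only regions, 15.6% had more plasma-cell-only regions, and the median difference was 0. Of all regions called in pc-BMACs or plasma cells, 8.42% were pc-BMAC-only and 9.46% were plasma-cell-only.

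The small Maf partners of BACH proteins, related CNC genes and Keap1, 8 in all, had 37 regions. Of these, 5 were pc-BMAC-only, with 1 of them at Keap1, and 2 were plasma-cell-only. Of all regions called in pc-BMACs or plasma cells, 8.42% and 9.46% were of these kinds. The 37 are not limited to regions called in those populations, so no matching share is given. The small Maf genes Maff, Mafg and Mafk had 0 of either kind. Of the 8, 3 had more pc-BMAC-only regions, 1 had fewer, and the median difference was 0. Nfe2l2, the gene of the NRF2 activator that competes with BACH1 for its sites, had 6 and 5 called regions of 9 in pc-BMACs, 5 and 4 in plasma cells, compared with 7 and 5 in immature B cells. Nfe2l3, a relative, had 5 and 6 of 9 in pc-BMACs, 3 and 3 in plasma cells, compared with 6 and 4 in immature B cells. Nfe2, which encodes an erythroid and megakaryocyte partner of small Maf proteins, had 3 and 3 of 4 in pc-BMACs, 4 and 3 in plasma cells, compared with 3 and 3 in immature B cells.

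The genes of heme, iron and oxidative stress handling, among them known BACH1 targets, were 12 and had 64 regions. Of these, 3 were pc-BMAC-only and 8 were plasma-cell-only, where all regions called in either population had 8.42% and 9.46%. The 64 are not limited to regions called in those populations, so no matching share is given. Of the 12 genes, 1 had more of the first kind, 5 had more of the second, and the median difference was 0. Me1, the gene of malic enzyme, had 3 and 2 called regions of 7 in pc-BMACs, 4 and 4 in plasma cells, compared with 3 and 3 in immature B cells. Gclc encodes the catalytic subunit of glutamate-cysteine ligase, an enzyme of glutathione synthesis. It had 8 and 6 of 13 in pc-BMACs, 7 and 8 in plasma cells, compared with 12 and 10 in immature B cells. Fth1, the ferritin heavy chain gene, had 3 and 1 of 6 in pc-BMACs, 4 and 5 in plasma cells, compared with 5 and 5 in immature B cells. Hmox1, named here after its values were seen, had 2 and 3 of 4 in pc-BMACs, 3 and 2 in plasma cells, compared with 1 and 1 in immature B cells, with 0 group-only regions between pc-BMACs and plasma cells.

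The 11 genes of the B cell to plasma cell switch had 167 regions, of which 10 were pc-BMAC-only and 13 were plasma-cell-only. All regions called in either population had 8.42% and 9.46% of these kinds. The 167 are not limited to regions called in those populations, so no matching share is given. Of the 11 genes, 1 had more of the first kind, 3 had more of the second, and the median difference was 0. Prdm1, the classic BACH2 target, had 13 and 12 called regions of 24 in pc-BMACs, 12 and 11 in plasma cells, compared with 14 and 16 in immature B cells, and 4 were pc-BMAC-only, with 2 plasma-cell-only. Irf8, which encodes a B cell and myeloid factor, had 14 and 14 of 21 in pc-BMACs, 13 and 12 in plasma cells, compared with 15 and 13 in immature B cells. Ets1, whose product restrains plasma cell formation, had 22 and 16 of 34 in pc-BMACs, 22 and 19 in plasma cells, compared with 28 and 26 in immature B cells. Pax5, the B cell identity factor, named after its values were seen, had 7 and 5 of 20 in pc-BMACs, 10 and 8 in plasma cells, compared with 15 and 14 in immature B cells.

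The genes most like Bach2 in the share of their regions called in each of the 6 libraries were, among 1511 others with at least 10 regions, Acoxl, Nxpe4, Tmem131l, Cd24a and Ctif. Their Euclidean distances to Bach2 were 0.088 to 0.136. Of its 25 regions, Acoxl had 48.0% and 20.0% called in pc-BMACs, 48.0% and 44.0% in plasma cells, compared with 72.0% and 56.0% in immature B cells. The genes most like Bach1 were Plekhm3, Smim14, Ccdc71l, Rora and Map4k3, at 0.118 to 0.144. Bach1 itself lay at 0.398 from Bach2, the 538th nearest gene.

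The lists held 34070 to 51643 peaks, and immature B cells 1 had both the longest list and the widest coverage. Marker genes did not sort the libraries by their labels through presence of a peak alone. All 6 plasma cell markers and the 1 region of Aire had called regions in every library, also in immature B cells. Of the 5 erythroid markers, Gata1, Hba-a1 and Hbb-bt had a region in plasma cells 1 alone, Klf1 had a region called in all 6 libraries and Alas2 had 0 regions. The 4 myeloid markers had 2 to 4 called regions of 7 in every library. Among them Csf1r had a called region in each library, Mpo in the pc-BMAC and plasma cell libraries, Lyz2 in immature B cells 2 alone, and Elane had 0 regions. The 3 plasmacytoid dendritic cell markers had 21 to 32 called regions of 46 in every library. The part of these cells in the Bach2 and Bach1 regions was not tested.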

How the data were processed

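ATAC-seq peak lists of 6 libraries were analysed, 2 each of pc-BMACs, plasma cells and immature B cells, grouped by the library titles. The submitters' processing notes name Bowtie2 2.3.3, HOMER 4.10, bedtools and mm10 but no roles. How peaks were called is not given in the sources used here. Per the file contents, the deposited lists give peak positions, and their score column holds 1000 in every row, so the score was not used. There are no read counts, so depth is unknown, no count test was possible, and a site without a peak may still be open.

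The 6 lists were merged at 1 bp overlap, and a library had a region when a peak of it overlapped. Each region went to the nearest protein-coding gene interval of RefSeq (GRCm38.p6, the assembly of mm10) within 100 kb, with ties going to the gene with most overlapping bases. This placed 65361 regions at 15084 of 21900 genes, and no Bach2 or Bach1 region was tied. Positions of exons were not used. Bases under peaks are the summed widths of a library's peaks in a region. Group-only regions are those in both libraries of one population and neither of the other, set beside their share of all regions called in the 4 libraries compared. The numbers of called regions were compared by exact permutation over libraries. RefSeq promoter windows were found for both genes and matched to motifs on both strands.

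Regions named with coordinates were the gene starts, the widest regions, those in both libraries of 1 population alone, and those group-only between pc-BMACs and plasma cells. Regions shared by pc-BMACs and plasma cells inside Bach2, and the Bach1 regions called in all libraries, were added after their values were seen. Up to 3 genes a list were named, by group-only regions between pc-BMACs and plasma cells and then by number of regions. The members and lists were chosen with earlier results of these data known. A marker gene of the list for B cells is not reported here, and the list's counts leave it out. The merge, call and assignment steps, and the group-only counts, were tested on simulated peak lists. Alternatives were lists of equal length, a 50% coverage rule, a merge gap of 100 bp, the gene interval alone, libraries that share an R number, and leaving out each library. Python 3.11.15, scipy 1.17.1 and matplotlib 3.10.9 were used.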

Additional observations from a re-analysis of the deposited data

How the results depend on the processing

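Each group-only count was recomputed under 138 alternatives over 14 results, of which 97 gave a count within 1.5 times the one reported and 41 did not. The cause of these differences was not tested, but the equal-length lists and the gene interval alone leave fewer regions by construction. Under a rule of 50% coverage by peaks, Bach2 had 1 pc-BMAC-only region and 3 plasma-cell-only regions between these populations and 1 pc-BMAC-only region against immature B cells, and Bach1 had 5 pc-BMAC-only regions against plasma cells. In the Bach2 flank that rule gave 1 plasma-cell-only and 4 immature-B-only regions against pc-BMACs. With the widest 34070 peaks of each list, immature-B-only regions against plasma cells were 5 at Bach2 and 0 at Bach1, and against pc-BMACs 0 at Bach1. With the widest 17035 peaks, Bach2 had 2 plasma-cell-only and 3 immature-B-only regions against pc-BMACs, and 2 and 2 between plasma cells and immature B cells. Bach1 then had 0 pc-BMAC-only regions against plasma cells, 1 against immature B cells, 1 plasma-cell-only region against immature B cells, and 0 immature-B-only regions against either population. The flank had 2 plasma-cell-only and 3 immature-B-only regions against pc-BMACs. With regions that overlap the gene alone, Bach2 had 2 plasma-cell-only and 7 immature-B-only regions against pc-BMACs, and Bach1 had 0 pc-BMAC-only regions against either population and 1 immature-B-only region against each. With 1 library of each population sharing an R number, Bach2 had 14 plasma-cell-only regions against pc-BMACs, 7 of them in the flank. Between pc-BMACs and immature B cells, 8 regions were then pc-BMAC-only and 27 immature-B-only, and 14 were immature-B-only against plasma cells.

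Leaving out each library in turn gave, at Bach2, 0 to 10 pc-BMAC-only regions, and 7 to 12 plasma-cell-only regions between pc-BMACs and plasma cells. Between pc-BMACs and immature B cells there were 2 to 8 pc-BMAC-only regions, and 16 to 27 immature-B-only ones. For plasma cells against immature B cells, 4 to 7 were plasma-cell-only, and 11 to 22 immature-B-only. Bach1 had 0 to 1 plasma-cell-only regions against pc-BMACs, and the flank had 4 to 7. No paired analysis was possible because the group-only counts come from no fitted test, and nothing says that a replicate number marks a shared animal. Depth is unknown, and it limits what an uncalled region can show.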
